A study of Mus musculus with 8 samples.

Results

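Astrocytes clear the transmitters that neurons release. In the spinal cord, where glutamate excites and both GABA and glycine inhibit, astrocyte carriers take these molecules up together with sodium, so uptake leans on the sodium gradient and on the negative membrane potential that the potassium channel Kir4.1 (Kcnj10) helps to hold. Glutamate inside the cell is amidated to glutamine and returned to neurons, or oxidised, and GABA is broken down in mitochondria. The 8 genes described here are carriers and enzymes of that clearance and were chosen by name, through the gene symbols of the authors' deposited table: Slc1a2 (GLT-1) and Slc1a3 (GLAST), the glutamate carriers of astrocytes, Slc6a11 (GAT-3), a GABA carrier, Slc6a9 (GlyT1), the glial glycine carrier, Glul (glutamine synthetase), Glud1 (glutamate dehydrogenase), Got1 (cytosolic aspartate aminotransferase) and Abat (GABA transaminase). They are 8 of 39179 genes counted and 8 of 14757 genes tested, so no member was lost to the filter on low counts.

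The study sequenced total RNA of Aldh1l1-GFP+ cells that were flow-sorted from dissociated spinal cord of mixed swiss-webster mice at postnatal days 12 to 14. All animals carried the reporter. The 4 control libraries (S1, S2, S6 and S7) are labelled wild-type and, in the series design, cre-negative, and whether their Kir4.1 alleles were floxed is not given in the sources used here. The 4 Kir4.1cKO libraries (S3, S4, S5 and S8, called cKO below) came from floxed/floxed animals with Aldh1l1-cre, a driver that uses the same promoter as the reporter. The series calls the libraries biological replicates, and how many animals went into each is not given in the sources used here.

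Gene reads per library ran from 13892736 (control S2) to 25065686 (cKO S8). Kcnj10 was at 1181, 2306, 1856 and 1937 CPM (read counts scaled to library size and composition) in controls S1, S2, S6 and S7, and at 27.2 to 37.6 CPM in the cKO libraries, so the targeted gene was low in each library labelled as its deletion. The 10 astrocyte markers summed to 8449 to 14020 CPM in controls and 11702 to 14772 CPM in cKO. Of these, 2 passed edgeR's quasi-likelihood test, both higher in cKO and without overlap: Aldh1l1, whose promoter drives the reporter, was at 131 to 151 CPM in controls and 244 to 350 CPM in cKO (adjusted p = 0.0179), and Aqp4, the astrocyte water channel, at 1588 to 2454 CPM and 3373 to 5268 CPM (adjusted p = 0.0244). In the other astrocyte markers the groups overlapped, and their direction was mixed. Gja1 was at 1475 to 3352 CPM in controls and 1064 to 2220 CPM in cKO, and Fgfr3 at 621 to 903 CPM and 559 to 648 CPM. Aldoc was at 1077 to 2079 CPM and 1366 to 2341 CPM, and Sox9 at 148 to 203 CPM and 185 to 255 CPM. Of the other cell types, 10 oligodendrocyte markers summed to 1480 to 2950 CPM in controls and 983 to 2413 CPM in cKO, and 7 markers of oligodendrocyte precursors to 348 to 1094 CPM and 267 to 514 CPM. The 12 neuronal markers summed to at most 91.5 CPM, with Slc32a1, the vesicular carrier of inhibitory neurons, at 1.43 CPM or less and Chat, of motor neurons, at 0.0474 CPM or less. Gad2, also a marker of inhibitory neurons, was at 5.58, 4.66 and 16.5 CPM in controls S1, S2 and S6 and higher still in S7. In cKO it was at 2.31 to 4.33 CPM, without overlap. Snap25 did not overlap either, at 21.9 to 39.98 CPM in controls and 13.2 to 21.03 CPM in cKO. In the other neuronal markers the groups overlapped. The mean log2 marker level of cKO minus control was −0.47 for neurons, −0.72 for oligodendrocytes and −0.75 for their precursors. It was −0.75 for endothelial cells and −1.20 for fibroblasts, whose level had an SD of 2.15 in controls and 1.82 in cKO. For mural cells it was −0.035, for ependymal cells −0.063, for microglia 0.076 and for Schwann cells 0.15. For astrocytes it was 0.19, with Aldh1l1 and Aqp4 included. Compared by exact 2-sided permutation, the lowest p among 10 cell types was 0.0857 (lowest adjusted p = 0.381), but with 4 against 4 libraries a single cell type could not have had an adjusted p below 0.286. The part of these differences in the results below was not tested. Values per library are given below in the order S1, S2, S6, S7 for controls and S3, S4, S5, S8 for cKO.

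None of the 8 clearance genes passed the test between groups, and their estimates were narrow enough to bound what could have been missed. By edgeR's quasi-likelihood test 0 of 8 had an adjusted p under 0.05, against 0.318% of all genes tested, and 0 of 8 had an unadjusted p under 0.05, against 9.81% of all genes. DESeq2 also called 0 of 8 (2.26% of all genes), with 0 at an unadjusted p under 0.05, and limma-voom called 0 of 8 (0.325% of all genes), with 1, Slc6a11, at an unadjusted p under 0.05. The libraries of the groups separated in 0 of 8 members and in 6.34% of all genes, and for a list of 8 a count of 0 is near each of these shares. The log2 fold changes of cKO over control ran from −0.30 for Slc6a11 to 0.18 for Slc6a9, with 3 above 0, 5 below and a median of −0.073, beside a median of −0.017 over all genes tested. In all 8 the 95% interval left out a 2-fold change in either direction: the lowest bound was 0.641-fold, for Slc6a11, and the highest 1.62-fold, for Slc6a9. The median standard error was 0.16 on the log2 scale for these genes and 0.36 for all genes tested. For the 2989 tested genes at least as abundant as the lowest member it was 0.19. By edgeR's quasi-likelihood test 27 of those 2989 passed and 14.99% had an unadjusted p under 0.05. The groups separated in 282 of them. In sorted cells of this kind, a change in the share of cells that express a gene cannot be told apart from a change in RNA per cell.

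**Figure D1:**
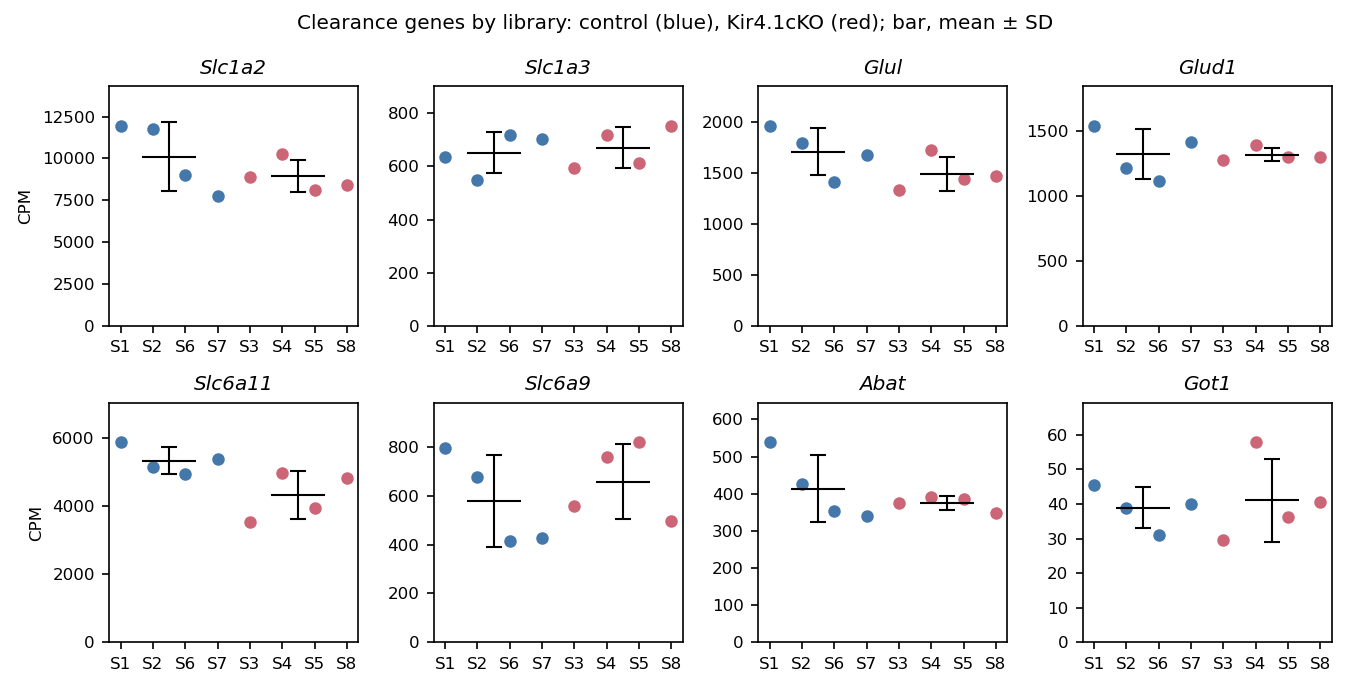
CPM of the 8 clearance genes (y axis, from 0) in each library (x axis), with controls in blue, cKO in red and the group mean ± SD (n = 4) as a black bar. The points of the groups overlap in every panel, and Slc6a9 in controls runs from 414 to 795 CPM.

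The glutamate carriers come first in the order of clearance. Slc1a2 carries most glutamate uptake of the adult brain. It maps to chromosome 2 of GRCm38 (102658659 to 102790784, plus strand), and shares 1.44% of its exon bases with the antisense gene Gm13872. Slc1a2 was at 11936, 11729, 8999 and 7762 CPM in the controls and at 8904, 10288, 8143 and 8432 CPM in the cKO libraries. The controls thus fell into a high pair, S1 and S2, and a low pair, S6 and S7, and all 4 cKO libraries lay between the lowest and the highest control. The means were 10107 CPM ± 2058 and 8942 CPM ± 951 (SD, n = 4 each), the log2 fold change was −0.18 (standard error 0.17), and the 95% interval ran from −0.55 to 0.20 (edgeR quasi-likelihood, adjusted p = 0.792).

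Slc1a3, the glutamate carrier that dominates in the cerebellum and in immature astrocytes, maps to chromosome 15 (8634124 to 8710764, minus strand). It was at 637, 547, 720 and 703 CPM in the controls and at 595, 719, 613 and 752 CPM in the cKO libraries. The groups overlapped, and controls S1 and S2, the highest of the controls for Slc1a2, were the lowest for Slc1a3. The means were 652 CPM ± 78.5 and 670 CPM ± 77.4 (SD, n = 4 each). The log2 fold change of 0.039 had a 95% interval from −0.29 to 0.37, which corresponds to a change between −18.4% and 29.4% (edgeR quasi-likelihood, adjusted p = 0.960).

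The balance of the carrier pair was followed as a ratio of counts within each library, which no scaling between libraries can move. Slc1a2 reads outnumbered Slc1a3 reads by 3.46 to 4.42 on the log2 scale in controls and by 3.49 to 3.90 in cKO. The geometric means of the count ratio were 15.3 in controls and 13.4 in cKO, a difference of −0.20 on the log2 scale (exact 2-sided permutation p = 0.457, adjusted p = 0.610 over 4 ratios). Slc1a2 is annotated with more exon sequence, and per kilobase of exon the ratio of means came to 10.1 in controls and 8.68 in cKO, or 8.41 and 7.71 in the deposited FPKM, the authors' length-scaled unit. With 4 against 4 libraries the smallest possible p is 0.0286, and a single ratio at that value would have an adjusted p of 0.114, so none of the 4 ratios could have passed alone after adjustment.

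The GABA carrier Slc6a11 had the largest estimate of the 8 genes. GAT-3 is found on astrocytes rather than neurons and sets the level of GABA outside synapses. Slc6a11 maps to chromosome 6 (114131241 to 114249952, plus strand), and shares no exon base with another annotated gene. It was at 5855, 5131, 4919 and 5376 CPM in the controls and at 3534, 4968, 3947 and 4824 CPM in the cKO libraries. Of the cKO libraries, 3 were below every control, and the fourth, S4, was above control S6. The means were 5320 CPM ± 402 and 4318 CPM ± 691 (SD, n = 4 each), the log2 fold change was −0.30 (standard error 0.16), and the 95% interval ran from −0.64 to 0.039 (edgeR quasi-likelihood, unadjusted p = 0.0784, adjusted p = 0.560). Over the 19 alternative settings the estimate stayed below 0, from −0.38 without cKO S4 to −0.21 without cKO S3, and the lowest adjusted p was 0.420, with DESeq2. The unadjusted p was 0.0322 with limma-voom and 0.04997 with edgeR's quasi-likelihood test when cKO S4 was left out. The authors' deposited table gave Slc6a11 a log2 fold change of −0.29 and an adjusted p of 0.385.

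The lowest Slc6a11 values, those of cKO S3 and S5, came from the libraries with the smallest shares of rRNA-like reads, 31.6% and 32.4% of gene reads against 36.7% to 43.1% in the other 6, and with the largest composition factors, 1.17 and 1.06 against 0.933 to 0.990. Without composition normalization the log2 fold change was −0.21, and without the rRNA-like transcripts it was −0.31. The part of these library differences in the Slc6a11 values was not tested.

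Slc6a11 had the largest estimate, so the sequence just before its start is shown. RefSeq starts on GRCm38.p6 were matched for 7 of the 8 members, all but Abat. The 250 bases before the start of Slc6a11, chr6:114130991-114131240, plus strand, are printed 5′ to 3′ with matches to GGGCGG or its reverse complement CCGCCC, the core of the GC box that Sp-family factors bind, in capitals.
Slc6a11: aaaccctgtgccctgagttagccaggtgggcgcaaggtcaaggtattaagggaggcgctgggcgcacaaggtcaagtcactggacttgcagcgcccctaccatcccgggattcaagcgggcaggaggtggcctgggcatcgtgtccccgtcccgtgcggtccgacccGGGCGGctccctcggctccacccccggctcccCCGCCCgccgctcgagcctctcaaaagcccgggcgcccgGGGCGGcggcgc
The window holds 3 such matches and none to CCAAT or TATAAA on either strand. Of 32851 windows of the same length before RefSeq starts, 32.7% hold GGGCGG, 33.8% CCAAT and 12.4% TATAAA on either strand. Matches are of letters only. The window before Glud1, the member with the smallest estimate, also holds 3 matches to GGGCGG and none to CCAAT or TATAAA. Among members with a matched start, matches to GGGCGG ran from 0, before Slc1a2 and Got1, to 3, before Slc6a11 and Glud1. Slc6a9 had more than 1 matched start, with 2, 0 and 0 matches. A relation of these matches to the fold changes was not tested.

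Of the other GABA carriers of the family, Slc6a12 and Slc6a13 had too few reads to be tested, with at most 3.08 CPM in any library.

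Abat, the mitochondrial transaminase that takes the amino group from GABA, maps to chromosome 16 (8513429 to 8621568, plus strand). It was at 538, 426, 352 and 340 CPM in the controls and at 375, 392, 386 and 349 CPM in the cKO libraries. Control S1 was the highest and the cKO libraries stayed within a narrow band inside the control range. The log2 fold change was −0.14 with a 95% interval from −0.50 to 0.22 (edgeR quasi-likelihood, adjusted p = 0.841), and without control S1 it was 0.00995.

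The enzyme after Abat in the same route is Aldh5a1 (succinate semialdehyde dehydrogenase). Aldh5a1 was at 154.8 to 219 CPM in controls and 115 to 154.7 CPM in cKO, without overlap but with almost no gap. Its log2 fold change was −0.58 with a 95% interval from −0.95 to −0.22, but it did not pass edgeR's quasi-likelihood test (unadjusted p = 0.00396, adjusted p = 0.219). DESeq2 called it, with an adjusted p of 0.0485, as did the authors' deposited table, with an adjusted p of 0.0372. Over the 8 fits that each left out 1 library its adjusted p from edgeR was 0.158 to 0.512.

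Slc6a9, the glycine carrier, varied most within groups of the 8 genes. GlyT1 keeps glycine low around inhibitory synapses of the cord and around NMDA receptors. The gene maps to chromosome 4 (117834506 to 117875198, plus strand). It was at 795, 676, 414 and 429 CPM in the controls and at 559, 756, 817 and 496 CPM in the cKO libraries. Controls S1 and S2 and cKO S4 and S5 were high, and controls S6 and S7 were the lowest of all 8 libraries. The means were 578 CPM ± 188 and 657 CPM ± 154 (SD, n = 4 each), and the log2 fold change was 0.18 with a 95% interval from −0.33 to 0.70 (edgeR quasi-likelihood, adjusted p = 0.853). The spread within groups was 0.41 (SD of log2 CPM), beside a median of 0.24 for the 171 tested genes within 1 log2 unit of its level, of which 84.2% spread less.

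Slc6a9 overlaps its neighbours. Of its exon bases, at most 38.6% are shared with Ccdc24, B4galt2 and Gm17114 on the opposite strand. That share was summed over the neighbours, so bases under more than 1 of them count more than once. Strand use in the counting is not given in the sources used here. Its mean FPKM was 9.84 times its mean CPM per kilobase of exon, whereas the median of that quotient was 2.48 over 11255 tested genes above 1 CPM per kilobase, with quartiles of 1.66 and 4.08. The level of Slc6a9 relative to other genes is therefore uncertain. Glycine is also removed by the mitochondrial cleavage system, whose decarboxylase is Gldc. Gldc was at 4.12 to 17.0 CPM in controls and 7.41 to 21.2 CPM in cKO, and the ratio of Slc6a9 to Gldc counts spanned 27.9 to 103 in controls and 23.4 to 110 in cKO (exact 2-sided permutation p = 0.857, adjusted p = 0.857 over 4 ratios). Slc6a5 (GlyT2), the glycine carrier of inhibitory neurons, was at 0.284 to 8.23 CPM in controls and at 0.358, 2.18, 21.5 and 2.18 CPM in the cKO libraries, with cKO S5 far above the other libraries.

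Inside the astrocyte, Glul joins glutamate with ammonia to make glutamine. It maps to chromosome 1 (153899944 to 153909723, plus strand), and shares at most 6.29% of its exon bases with Teddm2 and Mir8114, summed over both. Glul was at 1965, 1794, 1417 and 1675 CPM in the controls and at 1335, 1725, 1442 and 1479 CPM in the cKO libraries. Only cKO S3 was below every control. The log2 fold change was −0.20 with a 95% interval from −0.53 to 0.14, a change between −30.9% and 10.2% (edgeR quasi-likelihood, adjusted p = 0.731).

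Glud1, which oxidises glutamate to feed the citric acid cycle, maps to chromosome 14 (34310727 to 34345265, plus strand), and overlaps no other annotated gene. It was at 1541, 1220, 1116 and 1418 CPM in the controls and at 1282, 1392, 1300 and 1302 CPM in the cKO libraries. The group means were 1324 CPM ± 191 and 1319 CPM ± 49.4 (SD, n = 4 each), and the cKO libraries clustered in the middle of the control range. The log2 fold change of −0.0050 was the smallest of the 8, with a 95% interval from −0.33 to 0.32 (edgeR quasi-likelihood, adjusted p = 0.995).

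Glul reads exceeded Glud1 reads in all 8 libraries, 1.18-fold to 1.47-fold in controls and 1.04-fold to 1.24-fold in cKO. The difference of the mean log2 ratios was −0.20, from 0.37 ± 0.13 to 0.17 ± 0.10 (SD, n = 4 each), and 3 cKO libraries were below every control while S4 was not. It did not pass the exact 2-sided permutation test (p = 0.0571, adjusted p = 0.229 over 4 ratios).

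**Figure D2:**
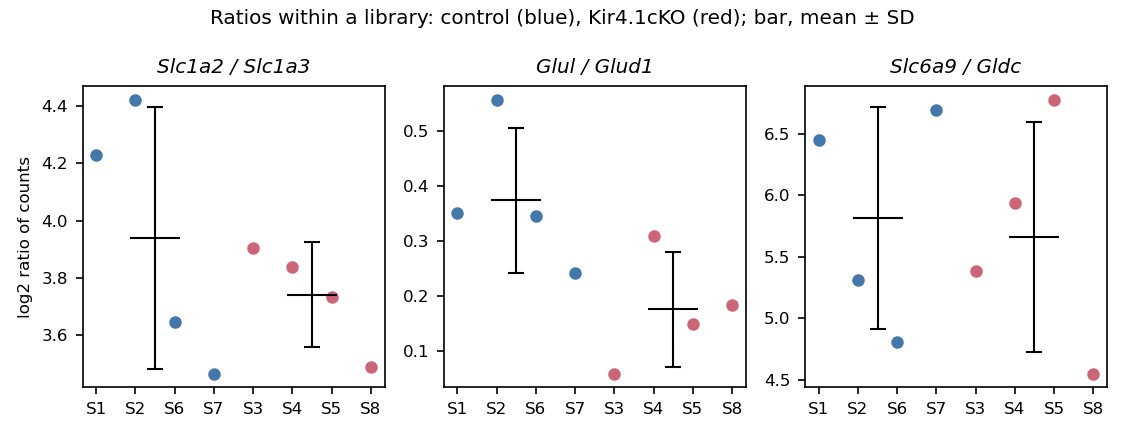
Log2 ratio of counts of 3 gene pairs (y axis, a separate scale in each panel that does not start at 0) in each library (x axis), controls in blue, cKO in red, with the group mean ± SD (n = 4) as a black bar. The cKO libraries lie towards the lower end for Glul over Glud1, with at least 1 library of overlap in each panel.

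Got1, which exchanges amino groups between glutamate and aspartate in the cytosol and serves the malate-aspartate shuttle, maps to chromosome 19 (43499752 to 43524605, minus strand). It was the least abundant member, at 45.6, 38.9, 31.1 and 40.0 CPM in the controls and at 29.5, 57.7, 36.2 and 40.5 CPM in the cKO libraries. The cKO group held both the highest and the lowest library. The log2 fold change of 0.075 had a 95% interval from −0.41 to 0.57 (edgeR quasi-likelihood, adjusted p = 0.946), and it was −0.14 without cKO S4.

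Levels were then compared between the clearance genes per kilobase of annotated exon. In controls Slc6a11 was highest with 1053 CPM per kilobase ± 79.6, followed by Slc1a2 with 770 ± 157, Glul with 515 ± 69.3, Glud1 with 314 ± 45.4, Slc6a9 with 113 ± 36.6, Slc1a3 with 76.3 ± 9.20, Abat with 53.4 ± 11.7 and Got1 with 15.3 ± 2.34 (SD, n = 4 each). The same order held for the cKO means. Each gene was above the next in all 8 libraries, except that Slc6a9 exceeded Slc1a3 in 7. In controls the ranges of Slc1a2 and Glul, of Slc6a9 and Slc1a3 and of Slc1a3 and Abat overlapped, and in cKO those of Slc6a11 and Slc1a2 did. Among 14576 tested genes with an annotated length, Slc6a11 ranked 19, Slc1a2 23, Glul 33 and Glud1 43 by the mean over all libraries. Together the 8 genes took 1.65% to 2.25% of gene reads per library.

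In the deposited FPKM the order differed for 4 of the 8 members. Slc1a2 led with a control mean of 2877 FPKM, ahead of Slc6a11 with 1753, Slc6a9 with 1124, Glud1 with 1007 and Glul with 975. Which of the leading carriers was the more abundant thus differed between the units. The exon length used here counts every annotated isoform, 13133 bases for Slc1a2 against 5050 for Slc6a11. The part of length, or of other differences between the units, in this order was not tested. The lower end of the order, Slc1a3, Abat and Got1, was the same in both units.

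**Figure D3:**
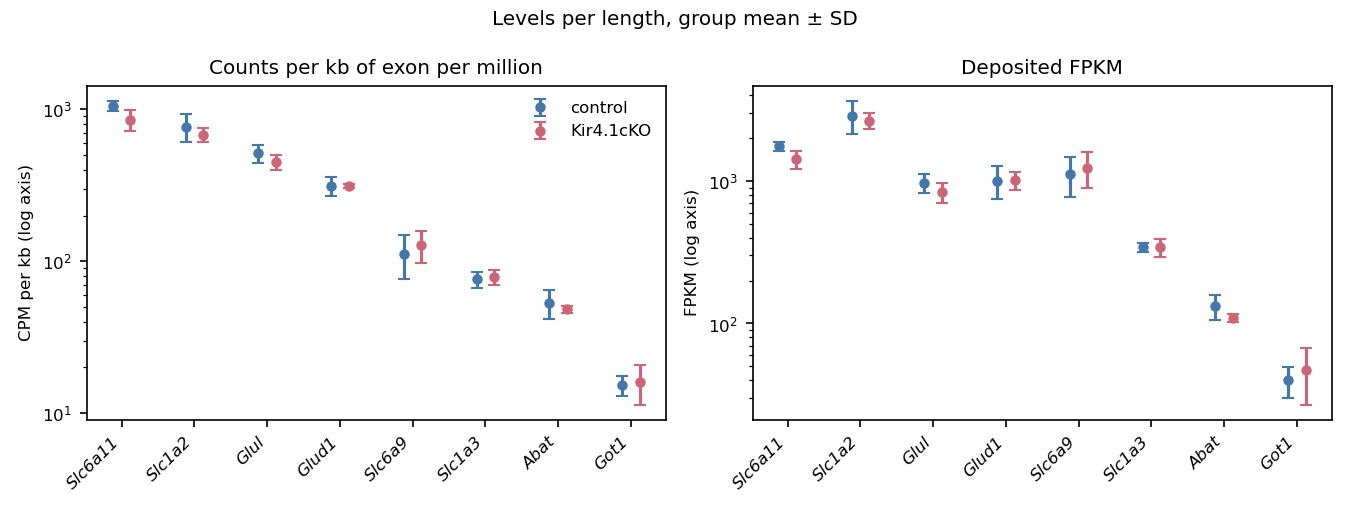
Group mean ± SD (n = 4) of the 8 clearance genes on a log axis, as CPM per kilobase of exon from the counts (left) and as deposited FPKM (right), with controls in blue and cKO in red. Slc6a11 is highest on the left (1053 CPM per kilobase in controls) and Slc1a2 on the right (2877 FPKM), and the groups lie close to each other for every gene.

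The profiles of the clearance genes across libraries were compared with those of other genes. For the members named here, the gene of most similar profile was sought among the other tested genes with a mean of at least 1 CPM, as the smallest root mean square difference of centred log2 CPM over the 8 libraries, which is a description of these libraries. For Slc6a9 this was Slc41a1 (0.064, where the profile of Slc6a9 itself spread by 0.37), a magnesium transporter gene. For Slc6a11 it was Cspg5 (0.081), for Slc1a2 Sema4a (0.080), for Glud1 S100b (0.062), for Glul Fibp (0.084), for Slc1a3 Fam120a (0.087) and for Got1 Rhog (0.12). No member was the nearest gene of another. The closest members were Slc1a2 and Abat, 0.12 apart, and Slc6a11 and Glul, 0.13 apart. Among the 13791 genes compared, Glul ranked 14 in likeness to Slc6a11, Abat 17 to Slc1a2 and Slc1a2 20 to Abat. Slc6a11 ranked 36 to Glul, and Glul 53 to Got1.

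The high values of Slc1a2, Slc6a9 and Abat in controls S1 and S2 were shared by some astrocyte markers and not by others. Of the 10 markers, 6 were higher in both S1 and S2 than in S6 and S7, 1 was lower in both and 3 were mixed. Gjb6, an astrocyte connexin, was at 974 and 926 CPM in controls S1 and S2 and at 372 and 381 CPM in S6 and S7, whereas Gfap, an intermediate filament, was at 165 and 145 CPM against 257 and 289 CPM. Precursor markers were lower in S1 and S2, with mean log2 levels of 4.63 and 4.30 against 5.44 and 6.26 in S6 and S7, and rRNA-like reads took 36.7% and 37.5% against 43.1% and 41.1% of gene reads. The part of these differences in the clearance genes was not tested.

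Around the 8 genes, 37 partner genes of the same routes were followed, of which 31 were tested. Of these, 15 had a log2 fold change above 0 and 16 below, with a median of −0.019. By edgeR's quasi-likelihood test 2 of 31 passed, both higher, where 0.318% of all genes passed, and 6 of 31 had an unadjusted p under 0.05, where 9.81% of all genes did. Both that passed are sodium-coupled glutamine carriers. Slc38a1 rose from 53.1 to 74.0 CPM in controls to 242 to 344 CPM in cKO, a log2 fold change of 2.17 with a standard error of 0.19 (edgeR quasi-likelihood, adjusted p = 0.000235). Slc38a2 rose from 53.9 to 90.2 CPM to 129 to 197 CPM, a log2 fold change of 1.13 (edgeR quasi-likelihood, adjusted p = 0.0363), and its call held in only 1 of the 8 fits that each left out 1 library, the one without control S7, with adjusted p of 0.0251 to 0.158 over the 8.

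The other 4 partners at an unadjusted p under 0.05 were Slc38a3, Got2, Gpt and Aldh5a1, described above. Slc38a3 (SN1), the carrier through which astrocytes release glutamine, had a log2 fold change of 0.55 (edgeR quasi-likelihood, adjusted p = 0.416), with 339 to 669 CPM in controls and 553 to 862 CPM in cKO. Got2, the mitochondrial counterpart of Got1, was at 18.1 to 22.2 CPM in controls and 23.8 to 42.6 CPM in cKO, a log2 fold change of 0.59 (edgeR quasi-likelihood, adjusted p = 0.416). Gpt, an alanine aminotransferase that also draws on glutamate, was at 14.0 to 29.7 CPM in controls and 3.64 to 12.1 CPM in cKO, a log2 fold change of −1.43 (edgeR quasi-likelihood, adjusted p = 0.217). DESeq2 gave Gpt an adjusted p of 0.0262 and the authors' deposited table one of 0.0257. Of the 31 tested partners, 5 had groups without overlap, namely Slc38a1, Slc38a2, Got2, Gpt and Aldh5a1, beside 6.34% of all genes. For Aldh5a1 there was almost no gap between the groups.

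By route, 0 of 6 tested genes passed in a list of other Slc1 carriers, the cystine-glutamate exchanger and Arl6ip5, a regulator of glutamate uptake, with Slc1a4 at a log2 fold change of 0.38 and Slc1a1 at −0.73 as the extremes. Of 10 tested genes of glutamate metabolism 0 passed. Of 4 tested GABA genes and 7 tested glycine genes 0 passed, and the glycine genes had log2 fold changes from −0.34 to 0.50. The authors' deposited table called 0 of the 8 clearance genes, where it called 2.87% of the 12314 genes with an adjusted p, and 4 partners, Slc38a1, Slc38a2, Gpt and Aldh5a1.

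**Figure D4:**
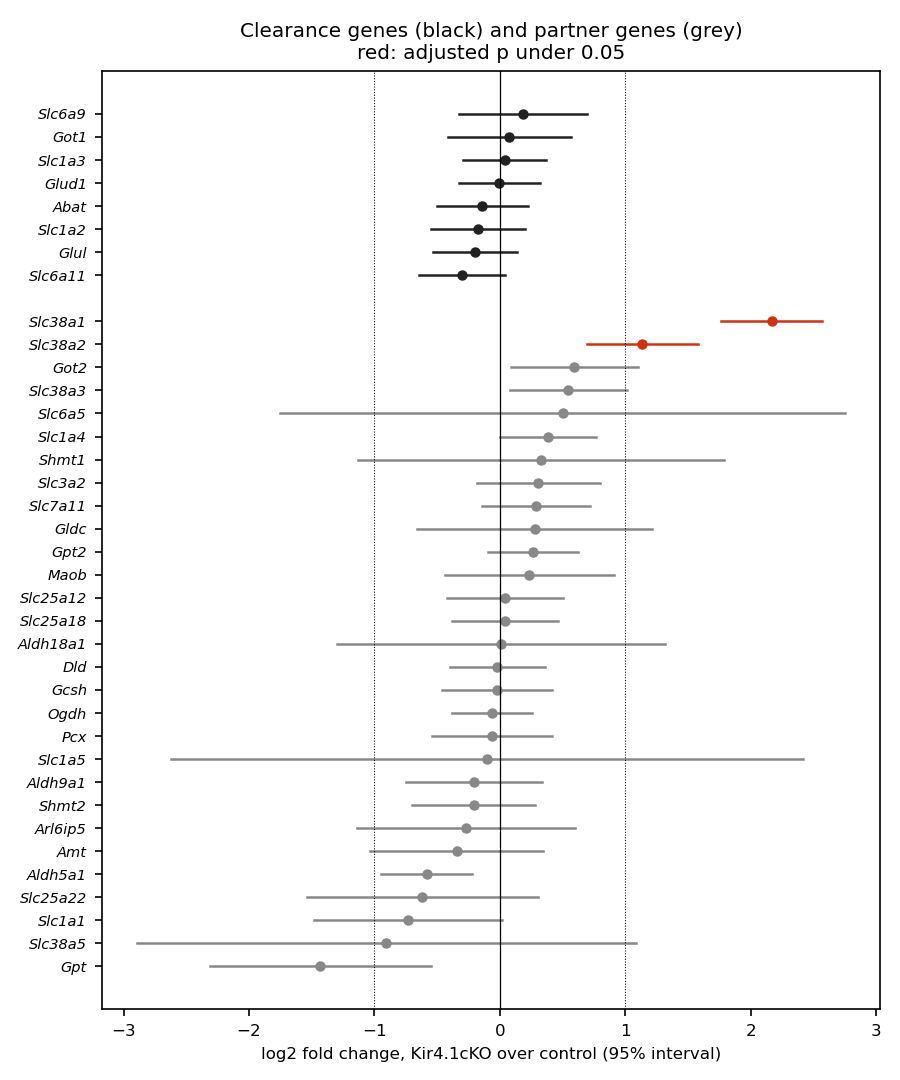
Log2 fold change of cKO over control with its 95% interval (x axis) for the 8 clearance genes (black, top) and 29 of the 31 tested partner genes (grey, below), ordered by size within each, with red for an adjusted p under 0.05 and dotted lines at a 2-fold change. All 8 clearance genes have intervals that include 0 and stay between the dotted lines, and only Slc38a1 and Slc38a2 are red.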

How the data were processed

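The authors deposited raw counts for 39179 Ensembl mouse genes in each of 8 libraries. The submitters' processing notes name TopHat2 2.0.11, Bowtie2 2.2.3, HTSeq 0.6.1p1, DESeq2 1.14.1, Cuffnorm and Cufflinks 2.2.1, and the build GRCm38. Annotation release and strand setting are not given in the sources used here. The lines of each count table that name no gene, 5 per library, held 56.4% to 61.7% of reads, among them 20.4% to 24.2% without a unique position. They entered neither the library sizes nor any test. The authors also deposited FPKM. Each FPKM column was matched to the library whose centred log2 profile it follows best; this was the library it is named for in 3 of 8 columns and a library of its own group in 8 of 8, so FPKM was used by group. Per the file headers, the authors' deposited DESeq2 comparison holds group means (a signal per gene), log2 fold changes, standard errors and Wald statistics (scores) and p-values.

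Counts were tested with edgeR 4.0.16 in R 4.3.3 (quasi-likelihood, TMM, filterByExpr, no covariate), with Benjamini-Hochberg adjustment over all 14757 genes tested and a threshold of 0.05; standard errors come from the F statistic and 95% intervals from the t distribution. CPM use TMM-scaled library sizes. Ratios used counts plus 0.5. DESeq2 1.42.0 and limma 3.58.1 (also on log2(FPKM + 1) or log2(FPKM + 0.1), with a mean FPKM of at least 0.5 where filtered) were alternatives, beside other scalings, filters, Xist level as a covariate, leaving out rRNA-like transcripts and leaving out each library. The fitting script was tested on simulated data. GENCODE mouse release 21 (GRCm38) gave lengths and positions. Named genes were the 8 members, Kcnj10, the ratio partners and each partner gene with an unadjusted p under 0.05; others were chosen after their values were seen. The members and lists were chosen with earlier results of these data known. A few genes, and 1 of the 4 ratios over which p was adjusted, are not reported here.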

Additional observations from a re-analysis of the deposited data

How the results depend on the processing

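No paired analysis was possible because the groups share no replicate number. The count of 0 clearance genes past the threshold was the same in all 19 alternatives. Slc1a2, Glul, Slc6a11 and Slc6a9 kept the sign of their estimate in all 19, and Slc1a3, Glud1, Abat and Got1 did not, Abat only without control S1. Glud1 was −0.0050 and became 0.10 with library totals, 0.019 with Xist level as a covariate, 0.0055 with limma-voom and 0.034 with FPKM (0.034 with a pseudocount of 0.1 and 0.034 with no filter). Slc1a3 was −0.00043 with FPKM at a pseudocount of 1, with or without a filter, and −0.00046 at 0.1. With each replicate left out in turn, Glud1 ran from −0.078 to 0.075, Slc1a3 from −0.036 to 0.10, Abat from −0.22 to 0.00995 and Got1 from −0.14 to 0.21. The causes were not tested. Library totals moved the median of all genes from −0.017 to 0.091, and the genes that passed from 30 higher and 17 lower to 48 higher and 14 lower.

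The ratio of Slc6a9 to Gldc, −0.15 on the log2 scale, ran from −0.53 to 0.22 when one replicate was left out. The other 3 ratios kept their sign and their side of the threshold, though with 3 against 4 libraries the exact test cannot go below 0.0571. The order of levels per length differed for 4 of 8 members with FPKM.

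Over all genes, 47 passed. The count was 87 and 84 when genes needed 1 count in any library or 10 in every library, 28 with Xist level as a covariate, 306 with DESeq2, and 9, 11 and 8 with FPKM at pseudocounts of 1, of 0.1 and of 1 with no filter. It ran from 4, without cKO S4, to 45 when one replicate was left out, with 30 without control S1, 14 without S2, 16 without S6, 24 without cKO S5 and 28 without cKO S8. The number of libraries limits what small changes could pass.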
